A study of Mus musculus with 6 samples.

Results

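The genes described here encode proteins that the liver releases into the blood plasma, measured in aortas of mice. They are 39 genes given as a list of symbols: Alb, Ttr, Ambp, Fga, Fgb, Fgg, Ahsg, Hpx, Hp, Plg, Serpina1c, Serpina3k, Serpina6, Serpinc1, Serpind1, Mbl1, Mbl2, F2, F9, F10, F12, Itih1, Itih2, Itih3, Itih4, Rbp4, Trf, Vtn, Gc, Kng1, Orm1, Hrg, Cp, Pzp, Proc, Azgp1, Saa4, Fetub and C9. Of the 45101 probe sets of the array, 34945 carry 1 gene symbol, and 51 of these belong to 36 of the 39 genes. Trf, Gc and Serpina3k have no probe set with a symbol of their own and are named only. The list was drawn up with the values of these 6 arrays known, and the signal intensities in the 3 groups are what chose it. The differences of these genes between the groups are therefore a description, given with standard errors and without p values.

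The arrays came from 3 groups of mice that were 32 to 34 weeks old. Untreated ApoE-/- mice on the C57BL/6J (B6) background lack apolipoprotein E and are labelled as having atherosclerosis. Vitamin E-treated ApoE-/- mice (VitE ApoE-/-) received 2000 IU per kg of diet for 7 months, and B6 mice carry no transgene and were the control. All mice were fed chow with 7% fat and 0.15% cholesterol, and each group has 2 arrays, each with the pooled RNA of 3 aortas, which leaves the spread among single mice unknown. ApoE deficiency was present in every cell of the mice and the aortas were taken after perfusion with PBS. The labels describe the aortas as free of fat, but Adipoq, which encodes the adipocyte hormone adiponectin, ranged from 7022 to 11405 over the 6 arrays. The sources do not say whether pools share animals, and p values then measure only the spread between these arrays. Apoe, the disrupted gene, had signal intensities of 93.2 and 57.4 on the untreated ApoE-/- arrays, 40.5 and 45.3 on the vitamin E arrays, and 5209 and 5432 on the B6 arrays.

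Most plasma proteins other than antibodies are secreted by hepatocytes. Albumin and the other carriers keep hormones, lipids, metals and haem in solution, the clotting factors circulate as inactive precursors, and serpins and inter-alpha-trypsin inhibitors hold proteases in check. Transcription of these genes in hepatocytes is known to depend on liver-enriched factors such as HNF1, HNF4 and C/EBP proteins. Some are transcribed elsewhere as well, for example in adipocytes (Rbp4, Hp, Orm1, Azgp1), in macrophages (Cp, F10) or in the choroid plexus (Ttr).

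The plasma protein genes had lower signal intensities in both groups of ApoE-/- aortas than in B6 aortas. Signal intensities under 20 were set to 20 before log2, and a gene was tested where its mean reached 100 in at least 1 group. This left 29 genes, each represented by its brightest probe set. Alb, which encodes the main protein of the plasma, had a signal intensity of 243 and 273 in untreated ApoE-/-, 379 and 485 in VitE ApoE-/-, and 6097 and 6107 in B6 aortas. The B6 arrays were far above the others, and the 3 groups did not overlap. The log2 fold change of Alb was −4.57 (standard error 0.12) in untreated ApoE-/- against B6 and −3.83 (standard error 0.12) in VitE ApoE-/- against B6 aortas. In the limma fit across all probe sets, 26 of the 29 genes were lower in untreated ApoE-/- aortas than in B6 aortas and 1 was higher (Orm1, beside 21.7% of all probe sets called higher), at an adjusted p under 0.05, while 19.1% of the 17909 probe sets tested were called lower. In VitE ApoE-/- against B6 aortas all 29 tested genes were lower, beside 19.2% of all probe sets. The median log2 fold change of the 29 genes was −2.98 in untreated ApoE-/- and −2.42 in VitE ApoE-/- against B6 aortas, and that of all probe sets tested was 0.03 and 0.02. Of the 29 genes, 17 reached a mean of 100 in B6 aortas alone, so they could enter the fit only as higher in B6, and 11 reached it in all 3 groups. With untreated ApoE-/- aortas, 23 of the 29 genes had a log2 fold change of −1 or less (3.58% of all probe sets tested), 19 of −2 or less (0.748%) and 14 of −3 or less (0.313%), and with VitE ApoE-/- aortas 24 (2.25%), 19 (0.648%) and 7 (0.207%). The counts and medians rest on the selection of the list and support nothing further. Fewer cells that make a transcript and less transcript per cell cannot be told apart in these whole tissue samples.

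**Figure D1:**
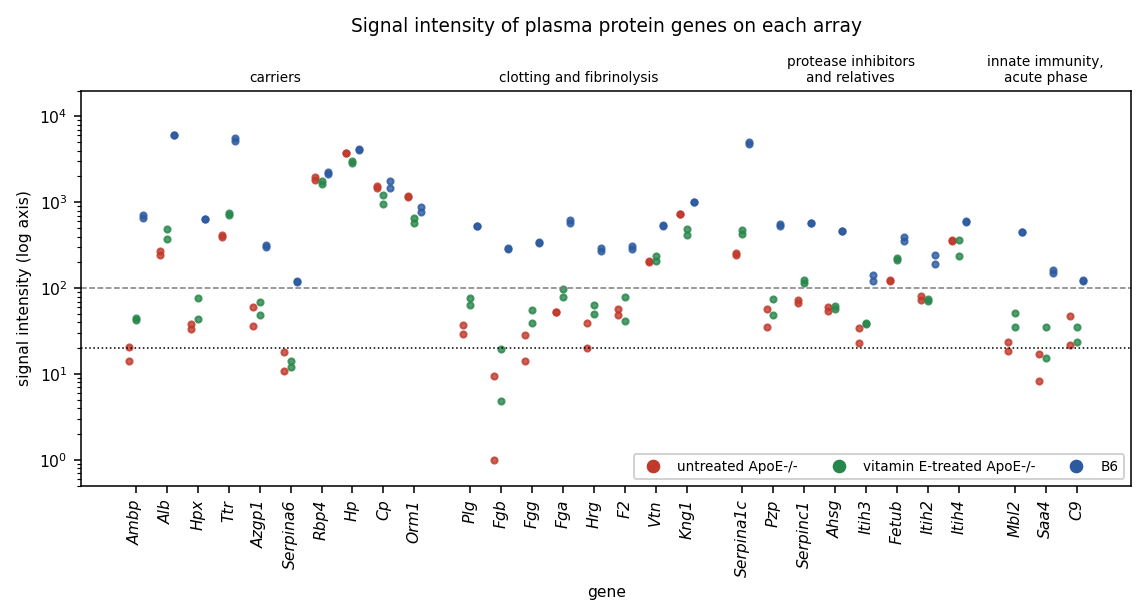
Signal intensity (log axis) of the 29 tested plasma protein genes on each of the 6 arrays, grouped by role, with 2 points per group for untreated ApoE-/- (red), VitE ApoE-/- (green) and B6 (blue) aortas. The dotted line marks the floor of 20 and the dashed line 100. B6 points lie above the others for most genes, such as Alb with 6097 and 6107, whereas Rbp4, Hp and Cp lie close together in the 3 groups. Orm1 is highest in untreated ApoE-/- aortas, with 1177 and 1159.

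The promoters of Alb, Fga, Fgb and Serpina1c are shown because the 4 genes were low together in ApoE-/- aortas and share a HNF1 half-site near the start of the gene. The sequences are from RefSeq (GRCm38.p6), run from 250 bases before to 50 bases after the gene's start, and are written 5′ to 3′. Capitals mark GTTAAT or, on the other strand, ATTAAC.
Alb (chr5:90460620-90460919, plus strand): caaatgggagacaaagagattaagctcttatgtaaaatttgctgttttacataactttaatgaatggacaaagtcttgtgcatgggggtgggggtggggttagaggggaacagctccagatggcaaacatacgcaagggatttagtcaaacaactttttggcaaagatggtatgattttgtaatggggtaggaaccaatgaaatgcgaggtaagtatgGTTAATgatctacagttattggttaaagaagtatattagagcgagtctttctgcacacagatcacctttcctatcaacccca
Fga (chr3:83025903-83026202, plus strand): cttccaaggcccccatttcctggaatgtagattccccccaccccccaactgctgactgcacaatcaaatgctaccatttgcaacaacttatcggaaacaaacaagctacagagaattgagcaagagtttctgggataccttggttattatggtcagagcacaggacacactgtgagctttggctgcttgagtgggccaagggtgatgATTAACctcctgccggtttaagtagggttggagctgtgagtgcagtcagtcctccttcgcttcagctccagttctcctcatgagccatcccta
Fgb (chr3:83049814-83050113, minus strand): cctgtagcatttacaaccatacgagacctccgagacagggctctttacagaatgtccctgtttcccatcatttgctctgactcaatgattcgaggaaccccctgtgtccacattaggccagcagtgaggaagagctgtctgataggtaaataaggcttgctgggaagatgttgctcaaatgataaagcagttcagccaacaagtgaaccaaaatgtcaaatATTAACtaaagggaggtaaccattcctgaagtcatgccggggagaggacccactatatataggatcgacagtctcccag
Serpina1c (chr12:103904901-103905200, minus strand): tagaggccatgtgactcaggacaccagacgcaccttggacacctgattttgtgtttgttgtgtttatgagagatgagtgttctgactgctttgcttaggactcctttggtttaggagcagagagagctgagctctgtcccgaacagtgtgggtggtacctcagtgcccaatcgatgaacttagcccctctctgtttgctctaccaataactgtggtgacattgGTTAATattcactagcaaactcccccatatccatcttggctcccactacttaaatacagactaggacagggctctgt
The match begins at position −32 relative to the start for Alb, −43 for Fga, −29 for Fgb and −27 for Serpina1c. Promoters of 30 of the 39 genes were found, and 10 of these genes (33.3%) hold GTTAAT on either strand, whereas 8.24% of the 27025 genes with a promoter do. The C/EBP spelling TTGCNNAA was found in 13 of the 30 genes (43.3%) and in 12.2% of all, the HNF4 spelling CAAAGTC in 4 (13.3%) and in 5% of all, and the TATA box TATAAA in 7 (23.3%) and in 15.7% of all. In all 10 spellings were searched on both strands. The other 3 were longer forms of the HNF1 palindrome with free bases in the middle, and each was in Gc alone (3.33%), beside 0.155%, 0.363% and 0.466% of all. CAAAGTCCA and TTGCGCAA were in none of the 30 (0.555% and 0.207% of all), and TTGNNNAA, which includes every match of TTGCNNAA, was in 22 of the 30 (73.3%) and in 40.1% of all. These matches describe letters and not binding. Cp and Vtn, with smaller differences between the groups, hold GTTAAT as well. The promoters of Ambp, with the lowest log2 fold change of the 29 genes, and of Hpx do not hold it. A link between the half-site and the differences was not tested.

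Among the carriers, Ambp showed the lowest log2 fold change of all 29 genes. Ambp encodes a precursor that is cleaved into alpha-1-microglobulin and bikunin, and it had a signal intensity of 14.4 and 20.9 in untreated ApoE-/-, 45.2 and 42.9 in VitE ApoE-/-, and 652 and 710 in B6 aortas. The log2 fold change was −5.06 (standard error 0.16) in untreated ApoE-/- and −3.95 (standard error 0.16) in VitE ApoE-/- against B6 aortas. The untreated value depends on the floor of 20, which 1 of the arrays did not reach. Hpx, which encodes the haem carrier haemopexin, had 38.8 and 33.8, 44.1 and 76.9, and 632 and 637 in that order of groups, or 5.72% and 9.53% of the B6 mean in untreated and VitE ApoE-/- aortas. Azgp1, a zinc-binding glycoprotein, had 36.4 and 60.1, 68.4 and 48.5, and 301 and 317. Untreated and VitE arrays overlapped for Azgp1 but not for Hpx. Serpina6, which encodes the corticosteroid carrier transcortin, was under the floor of 20 on all 4 ApoE-/- arrays and had 117 and 120 in B6 aortas, so that it was at least 5.93-fold lower in either ApoE-/- group.

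Ttr, which encodes the thyroxine carrier transthyretin, is measured by 4 probe sets that gave like differences. On the brightest of them the signal intensity was 414 and 390 in untreated ApoE-/-, 752 and 706 in VitE ApoE-/-, and 5219 and 5603 in B6 aortas. The log2 fold changes of the 4 probe sets ranged from −4.09 to −3.66 in untreated ApoE-/- against B6 and from −3.22 to −2.89 in VitE ApoE-/- against B6 aortas. Rbp4, the retinol carrier that forms a complex with transthyretin in plasma, did not share this difference. It had 1830 and 1981 in untreated ApoE-/-, 1638 and 1755 in VitE ApoE-/-, and 2165 and 2229 in B6 aortas, with log2 fold changes of −0.21 (standard error 0.07) and −0.37 (standard error 0.07) against B6.

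Hp, Cp and Orm1 were the remaining carriers, and none of them was lower by 2-fold in either ApoE-/- group. Hp encodes haptoglobin, which binds free haemoglobin, and had 3754 and 3788 in untreated ApoE-/-, 2871 and 3041 in VitE ApoE-/-, and 4198 and 4033 in B6 aortas. The log2 fold change was −0.13 in untreated ApoE-/- and −0.48 in VitE ApoE-/- against B6 aortas (standard error 0.06 for both). Orm1, an acute phase glycoprotein with closely related copies in the mouse genome that the probe set may also detect, had 1177 and 1159, 661 and 568, and 882 and 778 in that order. It was the gene called higher in untreated ApoE-/- aortas than in B6 aortas (0.50 on the log2 scale, standard error 0.10), and it was below B6 in VitE ApoE-/- aortas (−0.43, standard error 0.10). Cp encodes the copper-binding ferroxidase ceruloplasmin, and its brightest probe set had 1536 and 1455, 944 and 1223, and 1767 and 1487.

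The 7 tested probe sets of Cp disagreed on the difference between untreated ApoE-/- and B6 aortas, with log2 fold changes from −0.34 to 0.65. The probe set 1417496_at was called lower in untreated ApoE-/- aortas, 1448734_at was called higher, and the other 5 did not pass. For 1448734_at the signal intensity was 339 and 353 in untreated ApoE-/-, 254 and 230 in VitE ApoE-/-, and 226 and 216 in B6 aortas. In VitE against untreated ApoE-/- aortas the log2 fold changes of all 7 probe sets were below 0, from −0.74 to −0.28. Which part of the transcript each probe set detects was not examined.

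**Figure D2:**
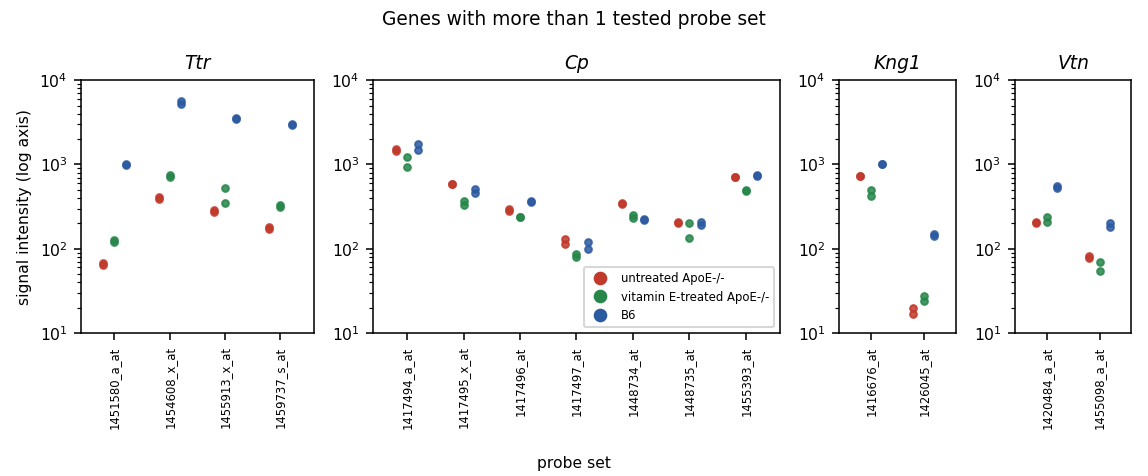
Signal intensity (log axis) on each array for every tested probe set of Ttr, Cp, Kng1 and Vtn, with 2 points per group for untreated ApoE-/- (red), VitE ApoE-/- (green) and B6 (blue) aortas. The 4 probe sets of Ttr show the same order of groups, whereas those of Cp differ in the order of untreated ApoE-/- and B6, and the dimmer probe set of Kng1 shows a wider gap to B6 than the brighter.

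All 8 tested genes of clotting and fibrinolysis were lower in both ApoE-/- groups, with Kng1 and Vtn least. Of these 8, 6 reached the limit on mean signal intensity in B6 aortas alone and could enter the fit only as higher in B6. The shares of all probe sets called lower were 19.1% in untreated and 19.2% in VitE ApoE-/- against B6 aortas. The 3 chains of fibrinogen, the precursor of fibrin, are encoded by Fgg, Fga and Fgb, which follow each other on chromosome 3 with no other protein-coding gene between them (RefSeq GRCm38.p6). Fga had a signal intensity of 53.1 and 53.0 in untreated ApoE-/-, 96.7 and 78.5 in VitE ApoE-/-, and 569 and 615 in B6 aortas. Fgg had 14.1 and 28.9, 56.0 and 39.2, and 349 and 333 in that order. Fgb was under the floor of 20 on all 4 ApoE-/- arrays and had 286 and 295 in B6 aortas, at least 14.5-fold higher than in either ApoE-/- group. The B6 arrays were above all others for each chain. The log2 fold changes against B6 were −3.48 (standard error 0.15) for Fga and −3.83 (standard error 0.25) for Fgg in untreated ApoE-/- aortas, and −2.76 and −2.86 in VitE ApoE-/- aortas.

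Plg encodes plasminogen, the precursor of the fibrin-cleaving protease plasmin. It had 29.0 and 37.7 in untreated ApoE-/-, 64.5 and 77.4 in VitE ApoE-/-, and 532 and 530 in B6 aortas, with no overlap among the 3 groups and log2 fold changes of −4.01 and −2.91 against B6 (standard error 0.18 for both). F2, the gene of prothrombin, had 49.1 and 57.6, 42.0 and 78.7, and 290 and 314, so that the ApoE-/- groups overlapped with each other and lay below B6. F9, F10, F12 and Proc, which encode coagulation factors IX, X and XII and the anticoagulant protein C, did not reach a mean of 100 in any group. Vtn encodes vitronectin, a plasma protein that also lies in the matrix, and was 2.65-fold lower in untreated ApoE-/- and 2.43-fold lower in VitE ApoE-/- than in B6 aortas, with 207 and 201, 240 and 207, and 530 and 552.

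Hrg and Kng1 encode histidine-rich glycoprotein and kininogen, from which bradykinin is released. They lie on chromosome 16 beside Ahsg and Fetub, their relatives of the cystatin family, and only Kng2, another kininogen gene, separates Hrg from Kng1. The neighbours differed from each other in size of change. In untreated ApoE-/- against B6 aortas the log2 fold change was −3.02 (standard error 0.14) for Ahsg, −1.59 (standard error 0.11) for Fetub, −3.35 (standard error 0.31) for Hrg and −0.46 (standard error 0.09) for the brighter probe set of Kng1. That probe set, 1416676_at, had 728 and 735 in untreated ApoE-/-, 491 and 420 in VitE ApoE-/-, and 1003 and 1013 in B6 aortas. The dimmer probe set of Kng1, 1426045_at, had 19.6 and 16.9, 27.7 and 23.8, and 141 and 149, which is at least 7.25-fold lower in untreated ApoE-/- aortas than in B6 aortas. The direction against B6 was the same but the size was not, and whether either probe set also detects Kng2 was not examined.

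All 8 tested protease inhibitors and their relatives were lower in both ApoE-/- groups, with a wide range in size. Of these 8, 4 reached a mean of 100 in B6 aortas alone and could enter the fit only as higher in B6. The shares of all probe sets called lower were 19.1% in untreated and 19.2% in VitE ApoE-/- against B6 aortas. Serpina1c encodes a mouse form of alpha-1-antitrypsin, the inhibitor of neutrophil elastase, and had a signal intensity of 246 and 256 in untreated ApoE-/-, 423 and 481 in VitE ApoE-/-, and 5044 and 4807 in B6 aortas. Its log2 fold changes against B6 were −4.29 and −3.45 (standard error 0.08 for both). Nearly identical copies of this gene lie beside it, so its probe set may detect them as well. Serpinc1, the gene of antithrombin, had 72.1 and 67.6, 115 and 124, and 580 and 568, and the 3 groups did not overlap. Pzp, a broad inhibitor that traps proteases, had 35.0 and 57.6, 48.7 and 74.4, and 554 and 523, with overlap between the ApoE-/- groups. Serpind1, the gene of heparin cofactor II, stayed just below a mean of 100, with 92.6 and 91.4 in B6 aortas, and was not tested. Its arrays of untreated and VitE ApoE-/- aortas ranged from 27.7 to 36.3.

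The heavy chains of inter-alpha-trypsin inhibitor encoded by Itih1, Itih2 and Itih3 bind bikunin, a product of Ambp, and Itih4 is a related gene. Itih4, Itih3 and Itih1 follow each other on chromosome 14, and Itih2 lies apart on chromosome 2. Itih3 had 23.0 and 34.6 in untreated ApoE-/-, 39.7 and 38.4 in VitE ApoE-/-, and 142 and 123 in B6 aortas. Itih4 had 358 and 360, 239 and 366, and 590 and 598, and its neighbour Itih1 was below a mean of 100 in every group. The log2 fold change in untreated ApoE-/- against B6 aortas was −2.22 (standard error 0.25) for Itih3 and −0.73 (standard error 0.18) for Itih4, and Itih2 was 2.83-fold lower. Ahsg, the gene of fetuin-A, which binds calcium phosphate in plasma, had 54.2 and 59.7, 57.2 and 62.0, and 463 and 459, and Fetub had 126 and 122, 212 and 226, and 355 and 391. Fetub thus reached 33.3% of the B6 mean in untreated and 58.8% in VitE ApoE-/- aortas, whereas Ahsg had 12.4% and 12.9%.

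Of the genes of innate immunity, Mbl2 encodes a mannose-binding lectin of the complement system. It had a signal intensity of 18.8 and 23.9 in untreated ApoE-/-, 51.2 and 35.4 in VitE ApoE-/-, and 455 and 455 in B6 aortas. C9, a subunit of the complement membrane attack complex, had 21.8 and 47.0, 23.6 and 35.1, and 125 and 121, and was just inside the limit of 100. Saa4, an apolipoprotein of the serum amyloid A family, had 8.27 and 17.3, 15.4 and 35.4, and 152 and 165, at least 7.91-fold lower in untreated ApoE-/- aortas than in B6 aortas. Mbl1 stayed below a mean of 100 in every group. The B6 arrays lay above both ApoE-/- groups for all 3 tested genes, beside 25.4% of all probe sets tested. All 3 reached a mean of 100 in B6 aortas alone. The log2 fold change of Mbl2 was −4.38 (standard error 0.22) in untreated ApoE-/- against B6 aortas.

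The 7 genes below the limit of 100 in every group (F9, F10, F12, Proc, Serpind1, Itih1 and Mbl1) had signal intensities from 1.79 to 40.7 in untreated ApoE-/-, from 4.36 to 46.7 in VitE ApoE-/- and from 51.8 to 97.4 in B6 aortas. On their brightest probe sets the groups did not overlap between B6 and ApoE-/- aortas. With these genes included, both B6 arrays lay above all 4 ApoE-/- arrays for 34 of 36 genes, as was the case for 17.1% of the 34945 probe sets with 1 symbol and for 25.4% of those tested. Some dimmer probe sets did overlap. For F10, 1418992_at had 10.6 and 4.98 in untreated ApoE-/-, 7.90 and 1.93 in VitE ApoE-/-, and 19.6 and 5.71 in B6 aortas, whereas 1418993_s_at did not overlap with B6. For Saa4, 1419319_at had 11.1 and 22.7 in untreated ApoE-/- and 16.6 and 12.8 in B6 aortas.

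**Figure D3:**
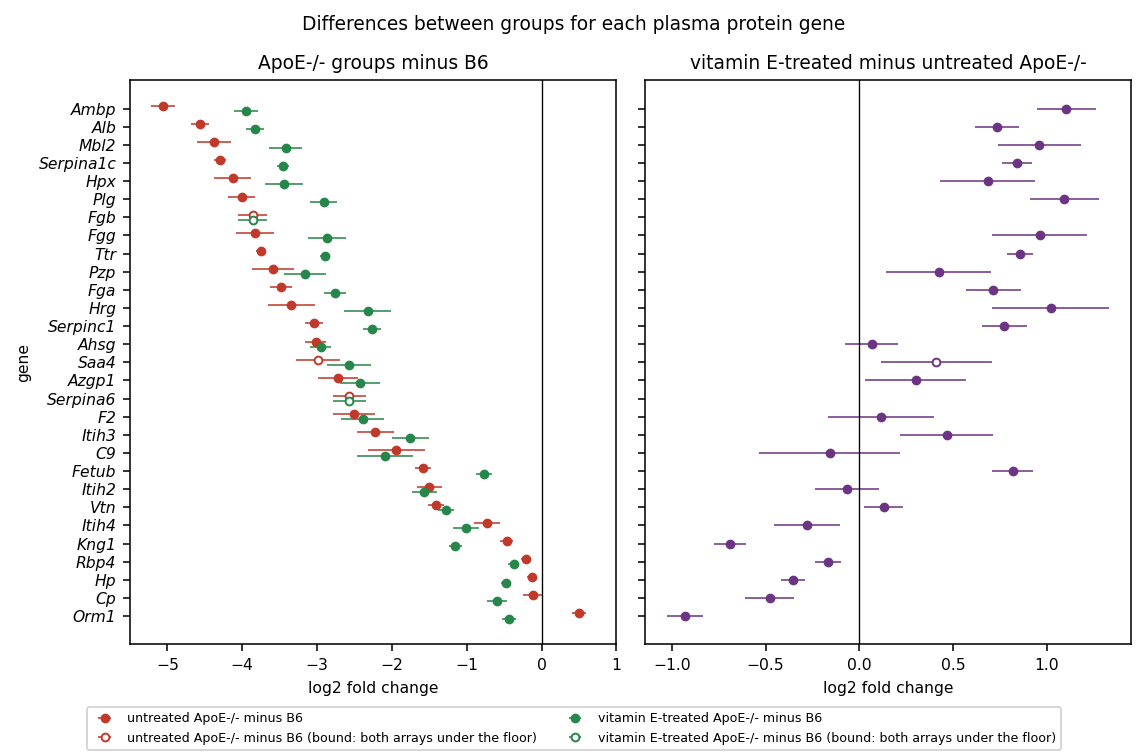
Log2 fold change (points) with standard error (lines) of the 29 tested plasma protein genes, left for untreated ApoE-/- minus B6 (red) and VitE ApoE-/- minus B6 (green), right for VitE minus untreated ApoE-/- aortas. Open points are bounds, with both arrays of a group under the floor of 20, and Serpina6 and Fgb have no point on the right because both ApoE-/- groups were under it. On the right, Ambp and Plg lie near 1.1 and Orm1 lies at −0.93.

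Genes made mainly by hepatocytes were set beside those with another well-known source. The genes were assigned to these sets with earlier results of these data known, so the counts and medians below are a description. Of the 22 tested genes made mainly by hepatocytes, 22 were called lower in untreated ApoE-/- aortas than in B6 aortas, with a median log2 fold change of −3.19 and a range from −5.06 (Ambp) to −0.46 (Kng1). Of the 7 tested genes with a well-known source outside hepatocytes (Ttr, Rbp4, Hp, Cp, Orm1, Azgp1 and Vtn), 4 were called lower and 1 higher, with a median of −0.21 and a range from −3.75 (Ttr) to 0.50 (Orm1). A log2 fold change of −3 or less was found for 13 of the 22 and for 1 of the 7 genes. In VitE ApoE-/- against B6 aortas the medians were −2.67 and −0.59. Of the 22 genes, 16 reached a mean of 100 in B6 aortas alone, as did 1 of the 7 (Azgp1). Such genes could enter the fit only as higher in B6. How far the filter sets the gap between these counts and medians was not tested. Of all probe sets tested, 19.1% were called lower. The difference between the sets was not tested.

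**Figure D4:**
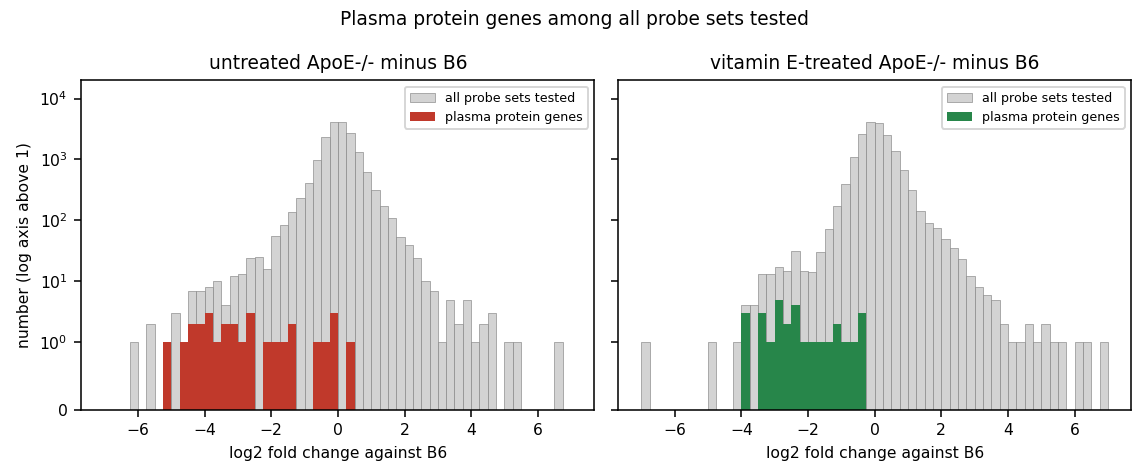
Number of probe sets (log axis above 1) by log2 fold change against B6 aortas for all 17909 probe sets tested (grey) and for the 29 plasma protein genes (red, untreated ApoE-/-; green, VitE ApoE-/-). The grey bars centre on 0, and the plasma protein genes spread from −5.06 to 0.50 in untreated and from −3.95 to −0.37 in VitE ApoE-/- aortas.

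Between the ApoE-/- groups, several plasma protein genes had higher signal intensities with vitamin E, and a few had lower. The sample numbers of the vitamin E arrays lie apart from those of the untreated ApoE-/- and B6 arrays. The methods do not say whether all arrays were processed together. Vitamin E treatment therefore cannot be told apart from a difference between sets of arrays, here or against B6. In the limma fit 10 of the 29 genes were called higher and 4 lower in VitE than in untreated ApoE-/- aortas, beside 8.52% and 6.99% of all probe sets tested. The 10 were Ambp, Plg, Fgg, Mbl2, Ttr, Serpina1c, Fetub, Serpinc1, Alb and Fga, from 2.15-fold for Ambp to 1.64-fold for Fga. Of these, Ambp, Plg, Fgg, Mbl2 and Fga reached the limit on mean signal intensity in B6 aortas alone, and not in either group compared here. The folds of Ambp, Fgg and Mbl2 depend on the floor of 20, since an untreated array was under it. With a floor of 50, 6 genes were called higher and 4 lower, and the median log2 fold change was 0.07 instead of 0.41. With the floor of 20, the 4 called lower were Orm1 (1.91-fold), Kng1 (1.61-fold), Cp (1.39-fold) and Hp (1.28-fold). The log2 fold change was 1.10 (standard error 0.16) for Ambp, 0.74 (standard error 0.12) for Alb and −0.93 (standard error 0.10) for Orm1. Ahsg, with a log2 fold change of 0.07 (standard error 0.14), F2, with 0.11 (standard error 0.28), and Vtn, with 0.13 (standard error 0.10), were among the 15 genes that did not pass. So were Hrg, with 1.02 (standard error 0.31), and Hpx, with 0.68 (standard error 0.25), so not passing does not show that a gene did not differ. For Kng1 the brighter probe set was lower with vitamin E and the dimmer had a log2 fold change of 0.36 (standard error 0.21), which did not pass. Even for the 10 genes the signal intensity with vitamin E stayed between 6.46% (Ambp) and 58.8% (Fetub) of the B6 mean, and it was 2.59% and 33.3% for these 2 genes without treatment. The count of 14, beside 15.5% of all probe sets in either direction, was 8 without replicate 1 of the untreated ApoE-/- arrays and 5 with no limit on signal intensity. Of 15 alternative settings of the limma fit, all called Ttr, Serpina1c, Serpinc1 and Fetub, whereas Fgg was called in 3, Cp in 6, Mbl2 in 7 and Fga in 9. The methods' t-test, which asks for a 2-fold difference, called 1 of the 29 genes and could call none of these 8, which all differed by less than 2-fold. The 3 comparisons share arrays, so their counts are not independent.

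Replicate arrays of a group gave like values for the brighter genes. Where both arrays of a group reached 100, the ratio of replicate 2 to replicate 1 ranged from 0.94 to 1.12 over 11 genes in untreated ApoE-/-, from 0.85 to 1.53 over 12 genes in VitE ApoE-/- and from 0.78 to 1.10 over 29 genes in B6 aortas. Under 100 the arrays of ApoE-/- aortas were farther apart, and at least 1 untreated array was under 20 for 7 of the 29 genes. With 2 arrays against 2, the smallest two-sided p of an exact permutation test is 0.333, and calls here depend on the variance that limma pools over probe sets.

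Other liver genes were lower in ApoE-/- aortas as well. A list of 45 further plasma protein genes of the liver had 15 tested, of which 13 were lower and none was higher in untreated ApoE-/- aortas than in B6 aortas, beside 19.1% of all probe sets called lower (median log2 fold change −2.08). In VitE ApoE-/- against B6 aortas 14 of the 15 were lower (median −2.33), beside 19.2% of all probe sets. Of these 15 genes, 10 reached 100 in B6 aortas alone. Serpina1b, another alpha-1-antitrypsin gene, had a log2 fold change of −3.64 (standard error 0.09) in untreated ApoE-/- against B6 aortas. It is a close relative of Serpina1c in the same gene cluster, and its probe set may detect Serpina1c as well. Its values are therefore not independent of the genes described above. Apoh, which encodes a phospholipid-binding plasma protein, had −3.22 (standard error 0.19) and was tested only because it reached 100 in B6. Hamp, the gene of the iron hormone hepcidin, was 2.94-fold lower in untreated ApoE-/- and 5.03-fold lower in VitE ApoE-/- than in B6 aortas, and it was lower with than without vitamin E (adjusted p = 0.0018 from limma). In VitE against untreated ApoE-/- aortas 1 of the 15 was higher (Serpina1b, with the same limit), beside 8.52% of all probe sets. In the same comparison 2 were lower (Hamp and Cpn2, the latter named after its values were seen), beside 6.99%.

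Enzymes and transporters of hepatocytes, which are not secreted, were compared in the same way. Of 32 genes 21 were tested, 13 of them reaching 100 in B6 aortas alone. In untreated ApoE-/- against B6 aortas 19 were lower and 1 was higher (Gys2, named after its values were seen), with a median of −2.72. Of all probe sets tested, 19.1% were called lower and 21.7% higher in this comparison. All 21 were lower in VitE ApoE-/- than in B6 aortas (median −2.16), beside 19.2% of all probe sets. Cyp3a11, a drug-metabolizing cytochrome, had a signal intensity of 24.8 and 26.1 in untreated ApoE-/-, 105 and 123 in VitE ApoE-/-, and 758 and 640 in B6 aortas, and it was 4.47-fold higher with than without vitamin E (adjusted p = 0.00026 from limma). Fabp1, the fatty acid-binding protein of the liver, had 112 and 104, 350 and 250, and 2083 and 2339, and was 2.73-fold higher with vitamin E (adjusted p = 0.0014 from limma). Cyp2e1, the ethanol-metabolizing cytochrome, was 7.65-fold lower in untreated ApoE-/- aortas than in B6 aortas (adjusted p = 1.3e-05 from limma), whereas Fah, an enzyme of tyrosine breakdown, was 1.14-fold lower and did not pass (adjusted p = 0.069). In VitE against untreated ApoE-/- aortas 8 of the 21 were higher and 2 lower, beside 8.52% and 6.99% of all probe sets. Of defining genes of hepatocytes, Cps1, Tat, Hpd and Slc10a1 were lower in both ApoE-/- groups than in B6 aortas, and Asgr1 was below a mean of 100 in every group. The summed signal intensity of the 29 genes with a probe set was 2740 and 2844 on the untreated ApoE-/- arrays, 3573 and 3804 on the vitamin E arrays, and 14896 and 15051 on the B6 arrays. The hepatocyte genes thus moved with the plasma protein genes, and their part in the result was not tested.

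**Figure D5:**
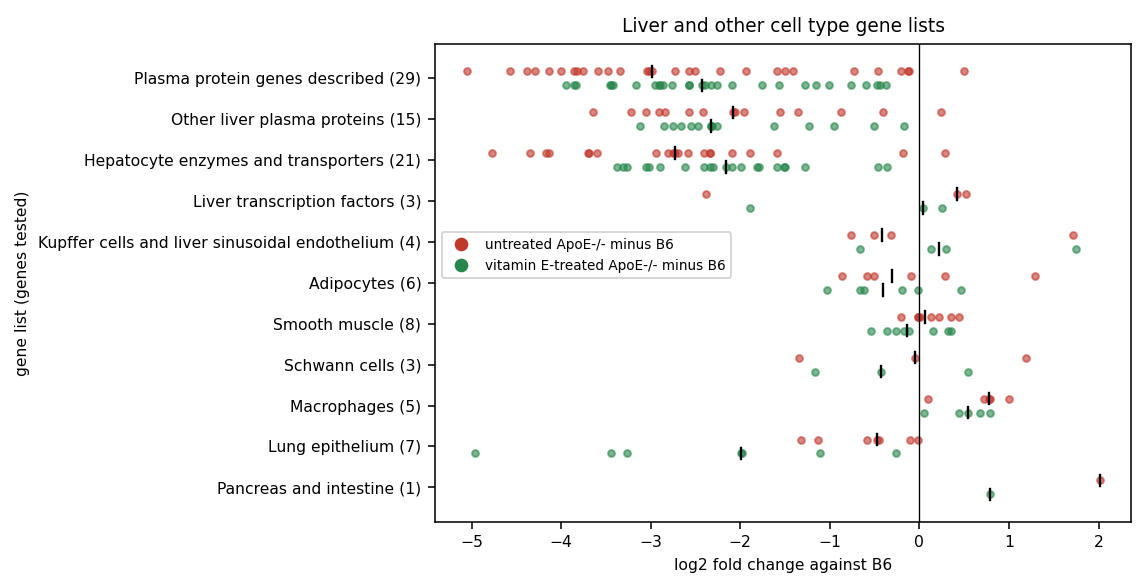
Log2 fold change of single genes (points) and their median (black bars) in each list, with the number of genes tested in parentheses, for untreated ApoE-/- minus B6 (red) and VitE ApoE-/- minus B6 (green) aortas. The plasma protein genes, the other liver plasma proteins and the hepatocyte enzymes and transporters have medians from −2.98 to −2.08, and smooth muscle genes lie around 0 with medians of 0.07 and −0.14.

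The remaining lists describe other cells that the samples could hold. Their counts stand beside the shares of all probe sets tested. In untreated ApoE-/- against B6 aortas 19.1% were called lower and 21.7% higher. In VitE ApoE-/- against B6 aortas 19.2% were called lower, and in VitE against untreated ApoE-/- aortas 6.99% lower and 8.52% higher. Of 10 liver transcription factors with a probe set, 3 were tested, and Hnf4a, with 24.6 and 22.5 in untreated ApoE-/-, 14.8 and 54.4 in VitE ApoE-/-, and 121 and 125 in B6 aortas, was called lower in untreated ApoE-/- aortas than in B6 aortas but was tested only because it reached 100 in B6, whereas Cebpa, also active in adipocytes, and Foxa1 were higher. Of 8 genes of Kupffer cells and liver sinusoidal endothelium 4 were tested, with Fcna and Marco lower and Cd5l higher in untreated ApoE-/- aortas than in B6 aortas, and Clec4f, a defining gene of Kupffer cells, ranged from 12.5 to 55.0 over the 6 arrays. Adipocyte genes, whose cells also make Rbp4, Hp and Orm1, were divided, with 3 of 6 lower (Adipoq 1.43-fold and Retn 1.82-fold among them) and 2 higher (Lep 2.44-fold), while Pnpla2 did not pass, in untreated ApoE-/- aortas than in B6 aortas. Macrophage genes, whose cells can make Cp, were higher in 4 of 5 (Cd68, log2 fold change 0.997, and Lyz2, 1.72-fold), and Csf1r did not pass. Of 8 smooth muscle genes 1 was higher (Smtn) and none was lower, and Acta2 and Tagln were bright on all 6 arrays, with at least 8791 and 3537, and Lmod1 did not pass. Against B6 aortas, 3 of the 8 were lower and 1 was higher in VitE ApoE-/- aortas, and 3 were lower in VitE than in untreated ApoE-/- aortas. Of 3 Schwann cell genes Mbp was lower, S100b was higher and Pmp22 did not pass. Lung epithelium genes were lower in 4 of 7 (Sftpc 2.19-fold and Ager 2.49-fold, but not Scgb1a1) in untreated ApoE-/- and in 7 of 7 (Sftpc 31.3-fold and Ager 10.8-fold, median −1.99) in VitE ApoE-/- against B6 aortas, and in 6 of 7 in VitE against untreated ApoE-/- aortas. Of the pancreas and intestine list Prss2 alone was tested, with 72.5 and 152 in untreated ApoE-/- and 3.49 and 33.8 in B6 aortas. It was called higher in untreated ApoE-/- aortas but entered the fit only through that group, and Lgals4 stayed below a mean of 100. The part of these cells in the values of the plasma protein genes was not tested.

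The arrays also differed in their controls. Bacterial poly-A control transcripts (9 probe sets of dap, lys and phe) were 2.88- to 5.60-fold brighter on B6 than on untreated ApoE-/- arrays, 2.36- to 3.16-fold brighter than on vitamin E arrays, and 1.08- to 1.81-fold brighter on vitamin E than on untreated ApoE-/- arrays. The 3′/5′ signal ratio of Gapdh, a sign of RNA quality, was 1.03 and 1.06 in untreated ApoE-/-, 1.15 and 1.24 in VitE ApoE-/-, and 1.35 and 1.34 in B6 aortas. Both controls order the groups as Alb does. The poly-A controls and the Gapdh ratio therefore moved with the groups. Whether labelling or RNA quality differed was not tested, and such a difference cannot be told apart from genotype or treatment here.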

How the data were processed

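Total RNA of aortas was hybridized to the Affymetrix GeneChip MG430 2.0 Array, with 3 aortas pooled per array and 2 arrays per group. The signal intensity values were computed by the authors with GCOS (version 1.4) and scaled to a target value of 200, and they were deposited on a linear scale, with 1 value per probe set and array. No counts or present calls were used here, and the number of arrays limits the precision. Groups were taken from the sample titles.

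Probe sets were named by the platform annotation where it gives 1 symbol, and all 39 symbols were found in the RefSeq table of GRCm38.p6. Since the annotation names no build, coordinates are given for RefSeq promoters only. Values under 20 were set to 20 and log2-transformed. The 17909 probe sets with a mean of at least 100 in at least 1 group, controls left out, were fitted with limma 3.58.1 in R 4.3.3, using a mean for each group and a trend of the variance with intensity (residual degrees of freedom 3, prior 4.46). P values were adjusted by Benjamini-Hochberg across everything fitted, and a call is an adjusted p under 0.05. A gene is represented by its probe set with the highest mean. Where both arrays of a group were under 20, folds against it are lower bounds.

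All genes of the list are named, and from each further list the 2 brightest and the 2 that differed most between untreated ApoE-/- mice and B6, together with the defining genes of hepatocytes and Kupffer cells and, after their values were seen, a few genes that went against their list. The further lists were other liver plasma proteins, hepatocyte enzymes and transporters, liver transcription factors, Kupffer cells and liver sinusoidal endothelium, adipocytes, smooth muscle, Schwann cells, macrophages, lung epithelium, and pancreas and intestine. The members, their split by source, the lists and the spellings searched in promoters were chosen with earlier results of these data known. As alternatives, arrays were quantile-normalized or centred on their median, the floor was set to 50 or 1, the filter was dropped or asked for 100 in the mean over the 6 arrays, the trend was left out, pairs of groups were fitted alone, the replicate number was a block, single arrays were left out, other probe sets of a gene were used, and the methods' t-test was run.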

Additional observations from a re-analysis of the deposited data

How the results depend on the processing

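Of 144 counts recomputed under the alternatives, 128 were within 1.5 times the reported count. Leaving out each array in turn gave 24 to 27 plasma protein genes lower in untreated ApoE-/- and 27 to 29 lower in VitE ApoE-/- than in B6 aortas, and 8 to 15 changed between the ApoE-/- groups. The ranges were 10 to 14, 11 to 14 and 2 for the other liver plasma proteins, and 19 to 20, 19 to 21 and 7 to 10 for the hepatocyte enzymes and transporters. With no filter, 5, 1 and 3 genes of the 3 lists changed between the ApoE-/- groups. Where the filter asked for 100 in the mean over the 6 arrays, 5 and 6 other liver plasma proteins and 11 and 13 hepatocyte genes were lower in untreated and VitE ApoE-/- than in B6 aortas, since fewer genes were tested. The methods' t-test (p of at most 0.01 and at least 2-fold) called 17 and 17 plasma protein genes, 5 and 6 other liver plasma proteins and 14 and 12 hepatocyte genes lower than in B6 aortas in untreated and VitE ApoE-/- aortas, and 1, 0 and 1 changed between the ApoE-/- groups. At these thresholds it called 789, 586 and 184 of all probe sets in untreated ApoE-/- against B6, VitE ApoE-/- against B6 and VitE against untreated ApoE-/- aortas. After Benjamini-Hochberg adjustment alone, 2156, 67 and 0 passed. Of 1326 recomputed log2 fold changes of single genes, 2 turned direction after a call, both on another probe set, namely Cp in VitE ApoE-/- against B6 (0.13 on 1448734_at) and Kng1 in VitE against untreated ApoE-/- aortas (0.36 on 1426045_at). The cause was not tested. Median centring moved the share of higher calls among all probe sets from 53.1 to 43.2%, from 53.3 to 31.4% and from 55.0 to 33.7% in the 3 comparisons, and moved the median of all probe sets to −0.13 in VitE ApoE-/- against B6 aortas, with 26, 29 and 14 plasma protein genes called as before. With the replicate number as a block, 26, 29 and 13 plasma protein genes were called. The deviations of same-numbered arrays correlated by 0.05, 0.05 and −0.10, so the numbers do not pair the arrays. Values near the floor of 20 limit the size of the largest differences.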
